A study of Homo sapiens with 10 samples.

Results

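The miRNAs described here are 6 that are in common use as internal references in quantitative PCR: hsa-miR-103 and its near-identical relative hsa-miR-107, the neighbours hsa-miR-191 and hsa-miR-425, and the partner strands hsa-miR-423-5p and hsa-miR-423-3p. They were taken by name from the assay list, where they are 6 of 742 miRNAs and have 9 of 745 assays, since each panel carries an assay for miR-103, one for miR-423-5p and one for miR-191. In the capture that the submitters named miRIP, a nucleic acid probe was transfected for 24 hours, RNA associated with it was bound to streptavidin beads, and miRNAs were measured by SYBR Green quantitative PCR. The purifications were HepG2 (a human liver tumour line) with a p21 mRNA probe, a STAT3 mRNA probe or a control probe, and PC-3 (a human prostate cancer line) with a p21 mRNA probe or a control probe. The cells were grown in medium with serum, and what the control probe binds was not given in the sources used here. Each condition was purified 1 time and read on panel 1 and panel 2 (10 samples), so no p-value is given and differences have no replicate check.

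A miRNA guides the Argonaute protein to messenger RNAs mainly through its seed, bases 2 to 8 from its 5′ end. miR-103 and miR-107 lie within genes of the pantothenate kinase family and are known for roles in insulin sensitivity in mice and for repressing Dicer, the enzyme that makes miRNAs. miR-191 and miR-425 come from 1 cluster, and miR-423 has been reported to repress p21 in liver cancer cells. All are broadly expressed, which is why they serve as references for total RNA. In a purification on a probe they are part of what is recovered and need not be even. How much p21 or STAT3 mRNA each purification held was not analysed here.

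The mature sequences are shown because the comparisons below set a 1-base relative, 2 arms of 1 hairpin and a cluster partner against each other. They are RefSeq's (GRCh38.p14), matched by name for 5 of the 6 miRNAs, 5′ to 3′, with the seed in capitals.
miR-103: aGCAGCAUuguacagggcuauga
miR-107: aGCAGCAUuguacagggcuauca
miR-191: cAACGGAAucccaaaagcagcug
miR-423-5p: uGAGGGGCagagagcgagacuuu
miR-423-3p: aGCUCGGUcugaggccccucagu

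miR-103 and miR-107 share the seed and differ at 1 of 23 positions, G22C (miR-103's base first, counted from the 5′ end), so an assay must tell them apart by that base. How well the assays do so was not given in the sources used here. miR-103 is made from chr5:168560904-168560926 (minus strand), within the bounds of PANK3, and from chr20:3917541-3917563 (plus strand), within PANK2. miR-107 comes from chr10:89592756-89592778 (minus strand), within PANK1. The miR-191 strand lies at chr3:49020672-49020694 (minus strand), within DALRD3 and NDUFAF3, and its hairpin is separated from that of miR-425 by 383 bases. miR-423-5p and miR-423-3p lie at chr17:30117095-30117117 and chr17:30117131-30117153 (plus strand), within NSRP1. The reference table gives gene bounds only, so exons and introns were not assigned.

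The value of an assay is its Cq, the cycle at which the signal crossed threshold. Earlier crossing means more template, and each cycle was counted as 1 log2 unit. Fewer cells and less RNA per cell cannot be told apart in these values. A Cq of at most 35 counted as detected. Over all 745 miRNA assays 211, 256 and 125 were detected in HepG2 with the p21, STAT3 and control probes, and 53 and 16 in PC-3 with the p21 and control probes. None of 45 water wells gave a Cq. Of 6 liver-enriched miRNAs 0, 4 and 0 were detected in HepG2 with the p21, STAT3 and control probes, and of 6 epithelial miRNAs 1 and 0 in PC-3 with the p21 and control probes. The liver-enriched list, miR-122 included, was therefore below the limit in 2 of the 3 HepG2 purifications. Blood-cell miRNAs (3, 3 and 4 of 6) and muscle miRNAs (2, 3 and 3 of 4) were detected in HepG2 with the p21, STAT3 and control probes, and 0 in PC-3; their part in the results was not tested.

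The reference miRNAs were detected more often than the panel as a whole, and differently in each purification. With the p21 probe in HepG2 8 of 9 assays were detected (28.3% of all assays), with the STAT3 probe 8 of 9 (34.4% of all), and with the control probe 5 of 9 (16.8% of all). In PC-3 3 of 9 were detected with the p21 probe (7.11% of all) and 0 of 9 with the control probe (2.15% of all). miR-425 was not detected at the limit in any purification. The 9 assays are not independent, since 3 miRNAs have an assay on each panel.

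**Figure D1:**
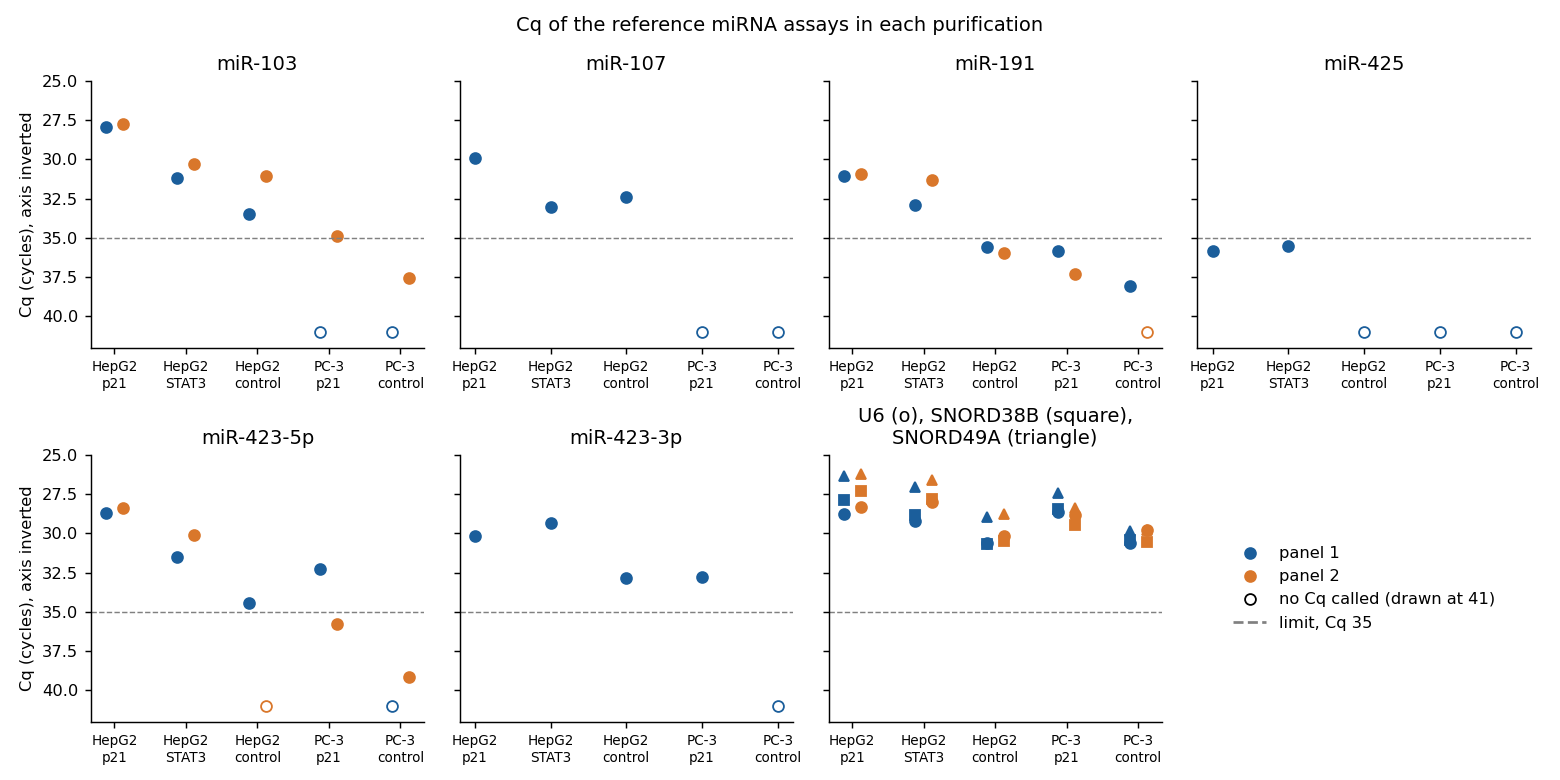
Cq (cycles, inverted axis, so that more template is higher) of each reference miRNA assay in the 5 purifications, with U6, SNORD38B and SNORD49A for comparison; blue is panel 1, orange panel 2, open symbols are wells without a Cq and the dashed line is the detection limit of 35. miR-191, miR-103, miR-107 and miR-423-5p stand highest in the HepG2 p21 purification, and 0 of the 9 assays pass the limit in the PC-3 control.

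hsa-miR-103 was at Cq 27.91 on panel 1 and 27.74 on panel 2 with the p21 probe in HepG2, at 31.18 and 30.26 with the STAT3 probe, and at 33.50 and 31.06 with the control probe. In PC-3 it passed the limit only on panel 2 with the p21 probe (34.86), against 37.53 there with the control probe, and gave no Cq on panel 1 with either probe. The order p21, STAT3, control, from most to least, was the same on both panels in HepG2. The difference between the STAT3 and control purifications was 2.32 cycles on panel 1 but 0.80 on panel 2, where it was close to the error between repeated assays.

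hsa-miR-107 was at Cq 29.93 with the p21 probe, 33.05 with the STAT3 probe and 32.39 with the control probe in HepG2, and gave no Cq in PC-3. It was the only reference miRNA detected at a later cycle with the STAT3 probe than with the control probe, by 0.67 cycles, a difference within the error between repeated assays.

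hsa-miR-191 was at Cq 31.06 and 30.96 (panels 1 and 2) with the p21 probe in HepG2 and at 32.92 and 31.28 with the STAT3 probe, against 35.55 and 35.93 with the control probe, past the limit. In PC-3 it stayed past the limit at 35.86 and 37.33 with the p21 probe, and at 38.08 on panel 1 with the control probe, with no Cq on panel 2. Its cluster partner hsa-miR-425 gave 35.81 (p21 probe) and 35.51 (STAT3 probe) in HepG2 and no Cq in the other purifications. miR-191 thus passed the limit with both target probes in HepG2 and miR-425 with neither, although assays of different miRNAs can differ in sensitivity and their Cq values do not compare amounts.

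hsa-miR-423-5p was at Cq 28.72 and 28.39 (panels 1 and 2) with the p21 probe in HepG2, at 31.48 and 30.11 with the STAT3 probe, and at 34.43 on panel 1 with the control probe, with no Cq on panel 2. In PC-3 it was at 32.24 on panel 1 but 35.77 on panel 2 with the p21 probe, so its detection there rests on panel 1. With the control probe in PC-3 it gave no Cq on panel 1 and 39.16 on panel 2. hsa-miR-423-3p, the other arm of that hairpin, was at 30.17 with the p21 probe, 29.30 with the STAT3 probe and 32.86 with the control probe in HepG2. In PC-3 miR-423-3p was at 32.80 with the p21 probe and gave no Cq with the control probe. It was the only reference miRNA detected in both target purifications of HepG2 with more template under the STAT3 than the p21 probe.

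The only error available is technical. For assays detected on both panels the SD of a Cq was 0.63 cycles (22 pairs of wells, offsets between panels included), and that of a difference between purifications 0.69 (17 pairs). The HepG2 differences share wells, since p21 over STAT3 follows from those over control, so these pairs are not independent. Pairs with a well past the limit or without a Cq, all of reference miRNAs, were left out. Where both such wells gave a Cq, panel 1 minus panel 2 was -3.53 cycles for miR-423-5p in PC-3 with the p21 probe. For miR-191 it was -1.47 in that purification and -0.38 in the HepG2 control. The SDs may therefore understate the error of wells near the limit. The spliceosomal U6 RNA together with SNORD38B and SNORD49A, both small nucleolar RNAs, gave 0.45 for a difference (12 pairs), while the reference miRNAs gave 1.07 (5 pairs). With the p21 probe the panels were 0.18 cycles apart for miR-103, 0.11 for miR-191 and 0.32 for miR-423-5p. With the STAT3 probe panel 1 was later by 0.92, 1.64 and 1.36 cycles for the same miRNAs, and U6, SNORD38B and SNORD49A were also later, by 1.17, 1.01 and 0.46. With the control probe miR-103 was 2.44 cycles later on panel 1, against 0.49, 0.24 and 0.23 for U6, SNORD38B and SNORD49A. Its differences from the control are therefore given for both panels.

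The p21 probe in HepG2 recovered more of each reference miRNA measured in both purifications than the control probe did, relative to the other miRNAs. Each panel was centred on the median difference of its miRNA assays detected with both probes, 1.30 cycles on panel 1 (87 assays) and 1.06 on panel 2 (16 assays). miR-423-5p was then 4.41 log2 units higher with the p21 than the control probe (21.3-fold, panel 1), and miR-103 4.29 higher on panel 1 (19.5-fold) but 2.26 on panel 2 (4.80-fold). miR-423-3p was 1.39 higher (2.63-fold) and miR-107 1.15 higher (2.23-fold). The 5 reference assays that passed the limit under both probes were all at least 2-fold higher and 0 lower, where 37.9% of 103 miRNA assays were higher and 36.9% lower. Their median was 2.26, against 0 for all, which the centring fixes.

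Another 3 reference assays were detected with the p21 probe and not with the control probe, as were 17.4% of the 620 assays that the control probe left undetected. On panel 2 the bound for miR-423-5p was at least 46.7-fold after centring, with the control set at Cq 35. miR-191 was at least 6.21-fold higher on panel 1 and at least 7.91-fold on panel 2. Relative to the small nuclear and nucleolar RNAs described next, the bounds were smaller, at 4.09 log2 units for miR-423-5p and 1.499 and 1.533 for miR-191 on panels 1 and 2.

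Measured against the small nuclear and nucleolar RNAs rather than the other miRNAs, 3 of these 5 differences were under 2-fold. U6 itself differed by 1.86 and 1.82 cycles towards the p21 purification (panels 1 and 2), SNORD38B by 2.82 and 3.18 and SNORD49A by 2.63 and 2.53, a mean of 2.44 on panel 1 and 2.51 on panel 2. Relative to that mean miR-423-5p stood at 3.28 and miR-103 at 3.15 on panel 1. miR-103 on panel 2 stood at 0.81, miR-423-3p at 0.26 and miR-107 at 0.02. With this scale 2 of the 5 were at least 2-fold higher and 0 lower, beside 17.5% higher and 52.4% lower among all 103.

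The STAT3 probe divided them. On the panel median (0.49 cycles on panel 1, 87 assays, and 1.13 on panel 2, 13 assays) miR-423-3p was 3.07 log2 units higher with the STAT3 than the control probe (8.39-fold) and miR-423-5p 2.46 higher (5.51-fold). miR-103 was 1.83 higher on panel 1 (3.56-fold) but -0.33 on panel 2. miR-107 was lower, at -1.16 (0.448-fold), although its uncentred difference of -0.67 was within the error between repeated assays. Among the 5 that passed the limit under both probes, 3 were higher by 2-fold or more and 1 was lower, where 29% of 100 assays were higher and 25% lower. The comparison uses the same control purification as that of the p21 probe, so the miR-103 control well on panel 1 enters both.

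Relative to U6, SNORD38B and SNORD49A, which differed by means of 1.75 cycles on panel 1 and 2.31 on panel 2 towards the STAT3 purification, miR-423-3p stood at 1.81 and miR-423-5p at 1.20. miR-103 stood at 0.57 on panel 1 and -1.51 on panel 2, and miR-107 at -2.42. That made 2 at least 2-fold higher and 2 lower of 5, beside 11% higher and 54% lower of all 100. Detected with the STAT3 and not the control probe were the panel 2 assay of miR-423-5p, with a bound of 13.5-fold on the panel median, and miR-191, at least 3.0-fold on panel 1 and 6.0-fold on panel 2. Relative to U6, SNORD38B and SNORD49A these bounds were smaller, at 2.58 log2 units for miR-423-5p and 0.32 and 1.41 for miR-191 on panels 1 and 2, so that of miR-191 on panel 1 was under 2-fold. Of the 620 assays undetected with the control probe, 25.2% were detected with the STAT3 probe.

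**Figure D2:**
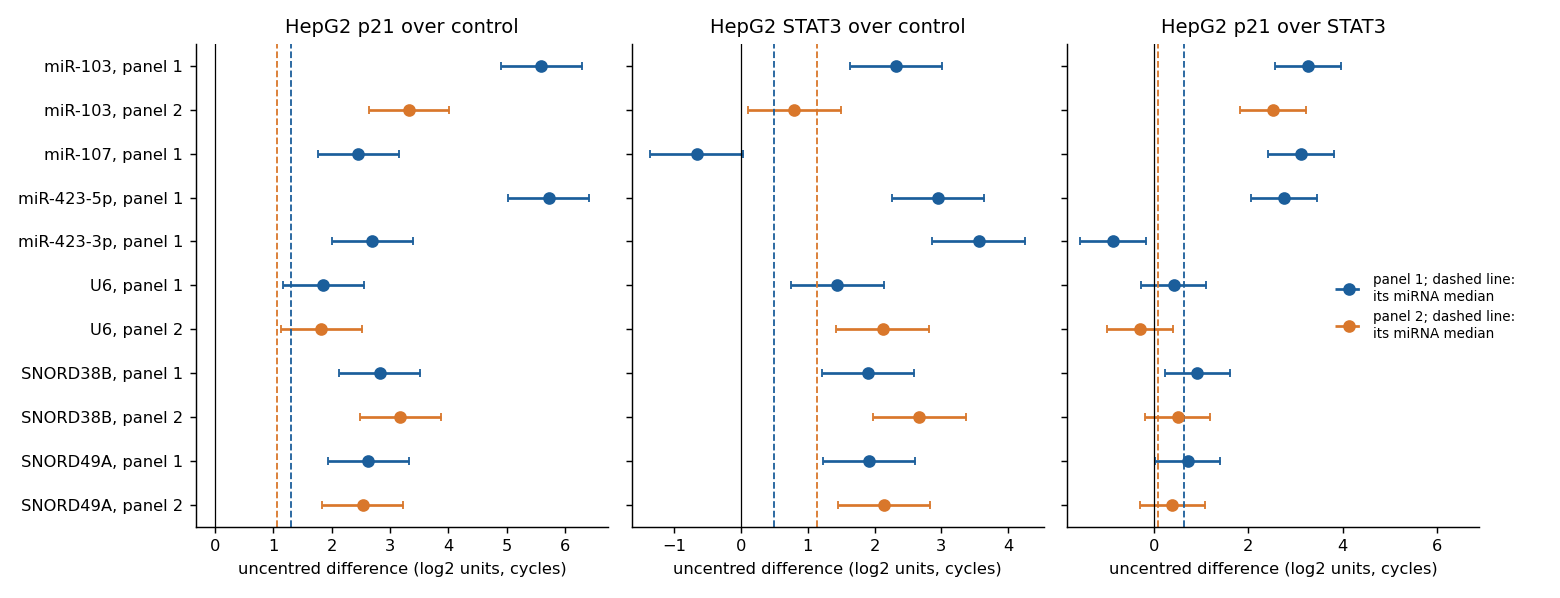
Uncentred differences between HepG2 purifications (log2 units, 1 per cycle; positive means more template in the purification named first) for the reference miRNA assays detected in all 3 and for U6, SNORD38B and SNORD49A; bars are ± the SD of 0.69 between repeated assays, dashed lines the miRNA median of each panel (blue panel 1, orange panel 2). miR-103 and miR-423-5p on panel 1 stand furthest right for p21 over control, at 5.59 and 5.71, and in p21 over STAT3 miR-103 and miR-107 lie together while miR-423-3p lies left of 0.

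Set directly against the STAT3 purification, which leaves the control wells out, the p21 purification held more miR-103, miR-107 and miR-423-5p and less miR-423-3p. After centring (0.64 cycles on panel 1, 102 assays, and 0.08 on panel 2, 53 assays) miR-103 was 2.63 log2 units higher with the p21 than the STAT3 probe on panel 1 (6.17-fold) and 2.44 higher on panel 2 (5.44-fold). miR-107 was 2.48 higher (5.59-fold), so the 3 assays of this seed differed from each other by less than the error between repeated assays. miR-423-5p was 2.12 higher on panel 1 and 1.64 higher on panel 2. miR-191 was 1.22 higher on panel 1 and 0.24 on panel 2. miR-423-3p was lower, at -1.50. Of 8 assays detected with both, 6 were at least 2-fold higher and 1 lower, where 29% of 155 were higher and 20% lower. Among the reference assays only miR-425 was undetected with the STAT3 probe, and the p21 probe left it undetected too. Of all 489 assays undetected with the STAT3 probe, the p21 probe detected 11.5%, a share that 1 reference assay cannot be compared with. On U6, SNORD38B and SNORD49A these counts were again 6 and 1, beside 27.7% and 21.3% of all, since those RNAs and the miRNA median differed by nearly the same amount on panel 1 (0.68 and 0.64 cycles) and by 0.20 and 0.08 on panel 2.

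The gap between the arms of miR-423 changed sign between purifications. Its size says nothing of the arms' amounts, as the assays differ, but a constant difference between the assays cancels in its change between purifications. Whether the 2 assays amplify equally well per cycle was not measured, and a difference there would not cancel. Within panel 1 the Cq of miR-423-5p minus that of miR-423-3p was -1.45 cycles with the p21 probe, 2.17 with the STAT3 probe and 1.57 with the control probe in HepG2, and -0.56 with the p21 probe in PC-3. These gaps need no centring, because both assays are on 1 panel. The gap moved by -3.02 cycles between the p21 and control purifications and by -3.62 between the p21 and STAT3 purifications. Between STAT3 and control it moved by 0.61. Each move sets the differences of 2 assays against each other, and no error was measured for that. For 1 assay's difference between purifications the SD was 0.69 over all repeated assays and 1.07 for the reference miRNAs. With the miR-423-5p well of panel 2, a version added after the data were seen that sets wells of different panels side by side, the HepG2 gap was -1.77 (p21 probe) and 0.81 (STAT3 probe). That is a move of -2.58 between the p21 and STAT3 purifications. The control gap has no such second value, because miR-423-5p gave no Cq on panel 2 there, so the moves from the control rest on the panel 1 well. In PC-3 it was 2.97 with the p21 probe, where that well was past the limit. The sign in the HepG2 p21 purification was thus the same with either well, while the PC-3 gap of -0.56 was within the error between repeated assays and its sign depended on the well.

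The gap between miR-103 and miR-107 depended on which panel gave the miR-103 value. With miR-103 of panel 1 it was -2.02 cycles with the p21 probe, -1.87 with the STAT3 probe and 1.12 with the control probe. With miR-103 of panel 2 it was -2.19, -2.79 and -1.32 cycles in the same order, which sets wells of different panels side by side. The target purifications had negative gaps with either, and the control purification had a positive gap with the panel 1 well only. The move between the p21 and control purifications was -3.13 cycles with panel 1 and -0.87 with panel 2.

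**Figure D3:**
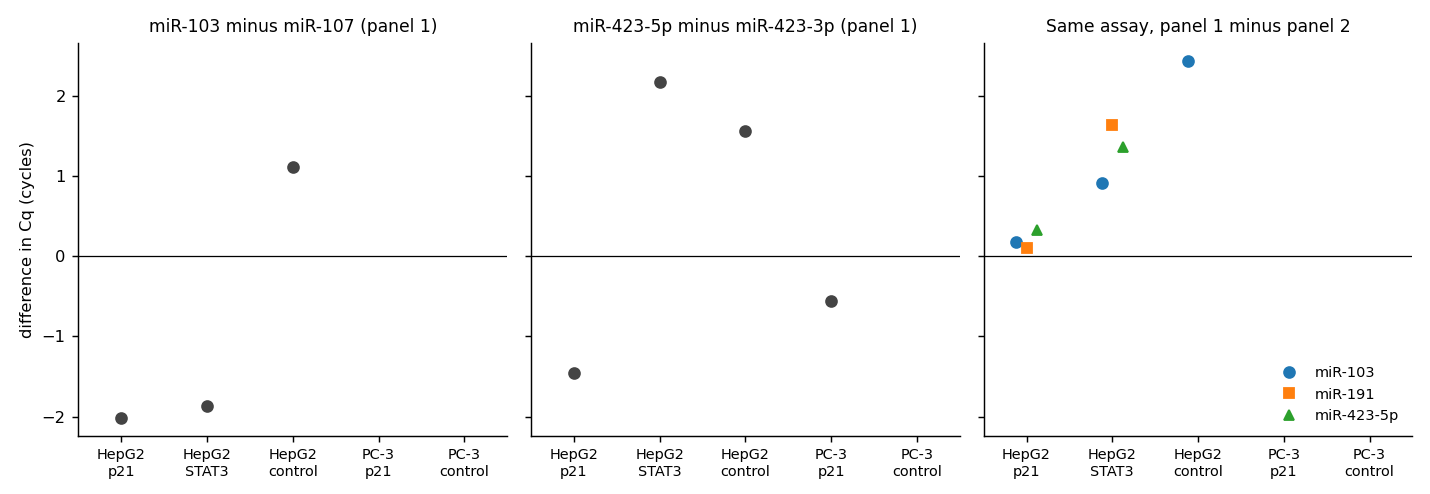
Differences in Cq (cycles) within each purification, for miR-103 minus miR-107 and miR-423-5p minus miR-423-3p on panel 1, and for panel 1 minus panel 2 of the assays on both panels; only values with both wells at or under Cq 35 are drawn. In HepG2 the miR-423 gap is below 0 with the p21 probe and above 0 with the STAT3 and control probes, the PC-3 p21 value of -0.56 is within the error between repeated assays, and the miR-103 control wells are 2.44 cycles apart.

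The partner strands gave little signal. miR-103-2*, the other arm of the chromosome 20 hairpin, was at Cq 37.36 with the p21 probe, 33.20 with the STAT3 probe and 37.79 with the control probe in HepG2. miR-191* was at 33.36 with the STAT3 probe and gave no Cq elsewhere. Both therefore passed the limit in the STAT3 purification alone of the 5. miR-425* lay past the limit in the 4 purifications where it gave a Cq, from 35.76 (PC-3, p21) to 36.77 (HepG2, p21). miR-103-as, read from the opposite strand of the miR-103 hairpins, gave a Cq of 36.74 in PC-3 with the p21 probe and none elsewhere.

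In PC-3, 0 reference assays passed the limit with both probes, so only bounds can be given, and the panel medians rest on 6 and 4 assays. miR-423-5p and miR-423-3p on panel 1 and miR-103 on panel 2 passed it with the p21 probe and not with the control probe, 3 of the 9, as did 5.9% of the 729 assays that the control probe left undetected. miR-423-5p was at least 1.82-fold higher with the p21 probe on the panel median, and miR-423-3p and miR-103 at least 1.23-fold, all under 2-fold. Before centring these bounds were 2.76, 2.20 and 0.14 log2 units, and relative to U6, SNORD38B and SNORD49A they were 0.62, 0.06 and -1.03, the last below 0.

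Between the cell lines, the reference miRNAs were higher in the HepG2 p21 purification than in the PC-3 p21 purification. For assays detected in both, the uncentred differences were 7.13 log2 units for miR-103 (panel 2), 3.53 for miR-423-5p (panel 1) and 2.64 for miR-423-3p. The median of 45 assays detected in both was 2.41, and after centring the values were 4.83, 1.02 and 0.13; at least 2-fold higher were 2 of the 3 and 0 lower, beside 37.8% higher and 31.1% lower of the 45. Another 5 assays passed the limit in HepG2 and not in PC-3, as did 24% of the 692 undetected in PC-3. U6 differed by -0.16 and 0.50 cycles, SNORD38B by 0.58 and 2.18 and SNORD49A by 1.08 and 2.16 (panels 1 and 2). Relative to their mean the same miRNAs stood at 5.51, 3.03 and 2.13, so 3 of 3 were at least 2-fold higher and 0 lower, beside 62.2% and 13.3% of the 45. With the control probe 5 of the 9 assays passed the limit in HepG2 and 0 in PC-3; of the 729 assays undetected in the PC-3 control, 15.8% were detected in the HepG2 control. miR-103 on panel 2 had the greatest bound, at least 11.5-fold on the panel median of 4 assays, while U6 differed by 0.00 and -0.34 cycles.

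Across the HepG2 purifications the uncorrected Cq of these miRNAs varied more than that of most assays. Over the 3 purifications the highest minus the lowest Cq was 5.71 cycles for miR-423-5p and 5.59 for miR-103 on panel 1, the 4th and 5th largest of 77 miRNA assays detected in all 3. miR-423-3p had a range of 3.56 (16th) and miR-107 of 3.12 (24th), beside a panel median of 2.24. miR-103 on panel 2 had 3.32, the 4th largest of 12, beside a median of 2.06. U6 varied by 1.86 cycles on panel 1 and 2.12 on panel 2, SNORD49A by 2.63 and 2.53, and SNORD38B by 2.82 and 3.18. At a limit of Cq 37 miR-191 joined with ranges of 4.49 on panel 1 (14th of 123) and 4.98 on panel 2 (2nd of 35). Relative to the mean of U6, SNORD38B and SNORD49A of the same panel, the ranges were 3.28 for miR-423-5p, 3.15 for miR-103, 2.44 for miR-107 and 1.81 for miR-423-3p on panel 1, where the median over miRNA assays was 2.37. On panel 2 that of miR-103 was 2.32, beside a median of 2.52. On this scale, at the limit of Cq 35, miR-423-3p and the panel 2 assay of miR-103 varied less than the median miRNA assay. At a limit of Cq 37 the medians on this scale were 2.58 on panel 1 and 2.24 on panel 2. miR-191 then had ranges of 2.05 on panel 1, below the median, and 2.47 on panel 2, above it. Against those medians miR-103 on panel 2 (2.32) lay above and miR-107 (2.44) below, so their order depended on the limit.

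**Figure D4:**
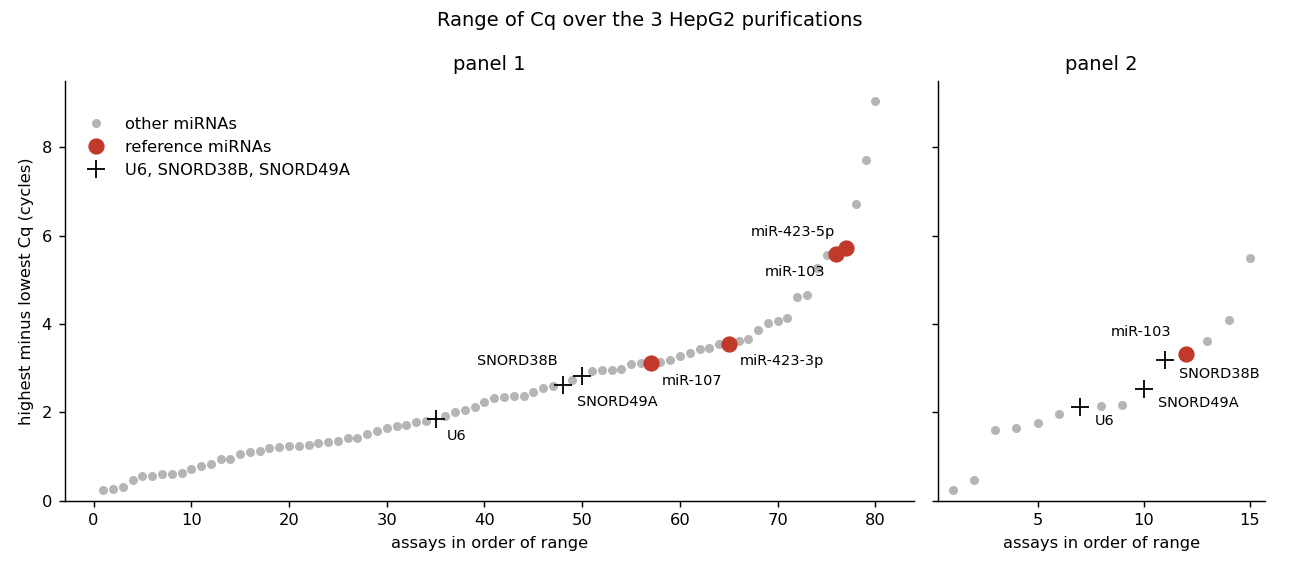
Highest minus lowest Cq (cycles) over the 3 HepG2 purifications, for every miRNA assay detected in all 3 and for U6, SNORD38B and SNORD49A, in order of size on each panel. miR-423-5p (5.71) and miR-103 (5.59) lie near the top of panel 1, and U6 has a smaller range on both panels than any reference miRNA.

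Other miRNAs in common use as references also differed in unequal amounts. Of 12 listed, 11 were detected with both the p21 and control probes in HepG2, and 5 were at least 2-fold above and 1 below the panel median (median 0.31), beside 37.9% above and 36.9% below over all assays. Higher with the p21 probe were miR-320a (4.26), miR-484 (2.16), miR-24 (1.89), miR-93 (1.29) and miR-30c (1.10), and miR-26a was lower (-2.35). Both the STAT3 and control probes detected 10 of them. Of these 7 were higher and 1 lower than the panel median by at least 2-fold (median 1.33), beside 29% and 25% over all. Those higher were miR-30c (2.95), miR-484 (2.69), miR-25 (1.89), miR-320a (1.67), miR-24 (1.44), miR-23b (1.23) and miR-93 (1.17), and miR-26a was again lower (-1.84). Outside these counts, let-7a was detected with the control probe (Cq 33.85) and not the STAT3 probe (35.63). Its bound was at least 3.12-fold lower on the panel median. miR-361-5p was detected with the STAT3 probe (34.67) and not the control probe, too near the limit for its bound to give a direction after centring. On U6, SNORD38B and SNORD49A the counts were 2 higher and 4 lower of 11 for the p21 probe, beside 17.5% and 52.4% over all, and 2 higher and 3 lower of 10 for the STAT3 probe, beside 11% and 54%.

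In miR-15a, miR-15b and miR-16, members of the miR-15/16 family, the first 7 bases of miR-103 and miR-107 form the seed, 1 base further from the 5′ end, as their sequences show (RefSeq, GRCh38.p14, seed in capitals).
miR-15a: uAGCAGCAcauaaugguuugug
miR-15b: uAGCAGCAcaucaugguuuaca
miR-16: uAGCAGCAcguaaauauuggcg
With the p21 probe against the control probe in HepG2, miR-15b (2.05) and miR-15a (1.84) exceeded the panel median by 2-fold or more, miR-424 (-1.94) below it, and miR-16 (-0.84) between, with 4 of 7 listed family members detected with both. That made 2 higher and 1 lower of 4, beside 37.9% and 36.9% over all assays. Relative to U6, SNORD38B and SNORD49A, 0 were higher and 2 lower by 2-fold, beside 17.5% and 52.4% over all assays. On that scale miR-15b stood at 0.91, miR-15a at 0.71, miR-16 at -1.97 and miR-424 at -3.07. With the STAT3 probe miR-15b (2.83) was higher and miR-15a (0.62) and miR-16 (-0.38) lay between. That made 1 higher and 0 lower of the 3 detected with both, beside 29% and 25% over all assays. On U6, SNORD38B and SNORD49A 1 of the 3 was higher and 1 lower, beside 11% and 54%. Outside these counts, miR-424 was detected with the control probe (Cq 33.85) and not the STAT3 probe (35.45), at least 3.12-fold lower on the panel median. miR-503 was detected with the STAT3 probe (33.71) and not the control probe, at least 1.74-fold higher. For p21 against STAT3 miR-15a was 1.39 higher and miR-15b -0.62, where miR-103 and miR-107 were all above 2. None of the family was detected in PC-3, where 0 of 7 passed the limit with either probe, beside 7.11% (p21 probe) and 2.15% (control probe) of all assays.

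The assays most like the reference miRNAs over the HepG2 purifications were found by the distance between their uncentred differences from the control, with p21 and STAT3 as coordinates of a point (the shared control enters both). Among 73 candidates on panel 1, miR-103 was nearest to miR-320a (distance 0.17 log2 units), let-7b (0.48) and let-7d (1.04). miR-423-5p was nearest to miR-320a too (0.81), then let-7b (1.09) and miR-193b (1.27). miR-423-3p was nearest to miR-30c (0.31), miR-15b (0.69) and miR-574-3p (0.78). miR-107 was nearest to miR-199a-5p (0.75), let-7g (0.94) and miR-378 (1.04), and miR-103 on panel 2, among 11 candidates, to miR-1913 (0.33), miR-296-3p (0.83) and miR-1972 (1.30). The nearest assays of miR-103 on panel 1 and of miR-423-5p were partly shared, and those of the arms of miR-423 were not. The miR-103 control well of panel 1, 2.44 cycles later than that of panel 2, enters both coordinates of that assay. For 1 assay's difference between purifications the SD was 0.69 over all repeated assays and 1.07 for the reference miRNAs. The order of the nearest assays is therefore not resolved.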

How the data were processed

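miRNAs recovered on probes were measured in 5 purifications, each on 2 Exiqon panels (10 samples), per the labels' protocols. The main table holds unnormalised Cq values that the authors deposited, 1 well per assay; the threshold, instrument and software were not given in the sources used here. A second deposited table holds the authors' fold ratios, per the file headers 2 to the power of minus ΔΔCt against an unnamed housekeeping gene. Its columns are titled as logs but none is negative, so they were read as linear ratios.

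Cq differences, taken as the second-named minus the first-named purification, were computed in Python 3.11.15 with pandas 2.3.3 for all 745 miRNA assays and centred per panel on the median of those detected (Cq at most 35) in both purifications; at least 1 log2 unit counted as 2-fold. Assays detected in 1 purification only got a bound with the other at Cq 35. With 1 purification per condition no test was made. The calculation was tested on simulated data. The miRNAs, lists and alternatives were chosen with earlier results of these data known. Named were all members, their partner strands, U6, SNORD38B, SNORD49A, 2 related lists and the 3 nearest assays of each member. Alternatives changed the centre, the limit and the handling of undetected wells.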

Additional observations from a re-analysis of the deposited data

How the results depend on the processing

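Each condition was purified 1 time, so the error of transfection and purification is unknown, and values near Cq 35 rest on little template. No paired analysis was possible because each condition has 1 purification and the panels are not replicates. Of 143 other values of the 21 single-assay differences, 71 stayed within the SD between repeated assays, and the others moved further or changed sign. These counts and those that follow include repeats. With undetected wells at Cq 35 each single-assay value equalled that without centring, so it is not a separate check. The authors' deposited folds gave nearly the same values as centring on the spike-in UniSp6. The sign was opposite in 6 of the 143 values, from 4 of the 21 differences, and 15 of the 21 kept 1 sign throughout. Of differences of at least 2-fold, miR-107 for STAT3 over control (0.63) and miR-423-3p for p21 over STAT3 (0.12) changed sign on UniSp3 (a calibrator template). Of smaller ones, miR-103 on panel 2 for STAT3 over control (-0.33) was 0.80 without centring and with undetected wells at Cq 35, and 0.90 on UniSp3. miR-191 on panel 2 for p21 over STAT3 (0.24) was -1.39 at Cq 32. The median for p21 over control was 3.32 without centring, 0.81 on U6, SNORD38B and SNORD49A, 2.97 on the spike-in UniSp6, 4.97 on UniSp3, 3.53 at Cq 37 and 3.94 with undetected wells at Cq 35. The count at least 2-fold higher was 2 of 5 on U6, SNORD38B and SNORD49A and 8 of 9 with undetected wells at Cq 35. Apart from the scale of U6, SNORD38B and SNORD49A, no share over all assays is given beside these or the following counts. They are therefore not read as particular to the reference miRNAs. For STAT3 over control the median was 0.57 on U6, SNORD38B and SNORD49A, 2.81 on UniSp6 and 3.62 on UniSp3, and the count was 5 of 7 at Cq 37 and 6 of 9 with undetected wells at Cq 35. At Cq 32 only miR-103 on panel 2 was left in both, at 0.00 for p21 and -0.81 for STAT3 with counts of 0. There it was the middle value of the few assays left on its panel for p21. For p21 over STAT3 at Cq 32 the median was 0.40 and the count 2 of 6, and with 1 value per miRNA, added after the data were seen, the count was 3 of 5. In PC-3 the count of 0 became 2 of 9 with undetected wells at Cq 35, and no median was computed because 0 assays passed the limit with both probes. The PC-3 bounds of miR-423-5p and miR-423-3p on panel 1, 2.76 and 2.20 before centring, were under 2-fold on the panel median. The median range over the HepG2 purifications was 3.56 cycles, 2.44 relative to U6, SNORD38B and SNORD49A, and 4.49 at Cq 37.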

Other observations

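For assays on both panels, values in the authors' deposited table match different panels in different comparisons. All 21 values it lists for the reference miRNAs were set against values rebuilt from the Cq table with each panel's own UniSp6 as normaliser and any Cq above 35 set to 35, and 20 came within 0.01 on the log2 scale. miR-103 has 2 entries: 40.9 and 7.83 for p21 over control in HepG2, which match panels 1 and 2, and 7.02 and 0.983 for STAT3 over control, likewise. For p21 over control in PC-3 the authors' deposited table gives 1.66 in the first entry and 0.71 in the second, which match panels 2 and 1, the other way round. miR-423-5p has 1 entry in the authors' deposited table, 76.1 for p21 in HepG2, which matches panel 2, against 44.6 rebuilt from panel 1. Its STAT3 value of 10.9 in the authors' deposited table matches panel 1, against 16.7 rebuilt from panel 2. Its PC-3 value of 4.80 in the authors' deposited table matches panel 1, against 1.51 rebuilt from panel 2. For miR-191 the authors' deposited table gives 13.0 for p21 in HepG2 (panel 1), 7.43 for STAT3 (panel 2) and 1.51 for p21 in PC-3 (panel 2). Where neither purification was at or under Cq 35, such a value is the UniSp6 difference alone and says nothing of the miRNA. In PC-3 that holds for miR-103 on panel 1 (0.71) and for miR-423-5p and miR-191 on panel 2 (1.51). The value that did not match is that of miR-425 for STAT3, 0.986 in the authors' deposited table, which comes out at 0.986 only when its STAT3 Cq of 35.51 is kept as measured, and at 1.40 with the limit. Among the partner strands 2 entries did not match with the limit. miR-425* for STAT3, 0.784 in the authors' deposited table, matched only with its Cq kept as measured. miR-191* for p21 over control in PC-3 is 0.71 in the authors' deposited table, against 1.51 rebuilt from panel 2. The entry of miR-425 for p21 in HepG2, 0.849 in the authors' deposited table, follows the limit although its Cq was 35.81. miR-425 was undetected at the limit throughout, as was miR-191* in PC-3, so their 0.849, 1.40 and 1.51 are also UniSp6 differences alone.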
